A study of Mus musculus with 9 samples.

Results

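The genes described here are the pair of transcriptional coactivators YAP (Yap1) and TAZ (Wwtr1), the 4 TEAD transcription factors Tead1 to Tead4 that they bind, and 4 classic target genes of the complex, Ankrd1, Cyr61 (Ccn1), Ctgf (Ccn2) and Amotl2. They were chosen by their roles and by their measured CPM and fold changes in the 3 cell lines, and all 10 were found in the gene-level RNA-seq table of 19044 gene identifiers. Because these measurements chose them, their values and fold changes are given as a description, without p-values.

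The libraries came from mouse skin squamous cell carcinoma (SCC) cells. The parental cells derive from tumours raised by the two-stage DMBA and TPA chemical carcinogenesis protocol in FVB mice carrying K14CreER and floxed alleles of focal adhesion kinase (FAK, gene Ptk2), and FAK was deleted in culture with 4-hydroxytamoxifen. FAK-/- cells lack FAK. FAK-WT and FAK-kd cells are FAK-/- cells of 1 clone that were retrovirally transduced to express wild-type or kinase-deficient FAK, under hygromycin selection. All 3 lines therefore share the tumour origin and the Cre-mediated deletion, while transduction and hygromycin selection were described for the re-expressing lines. Each genotype is represented by 1 line with 3 libraries labelled as replicates. The p-values below measure the spread between libraries of 1 line each, not between independently derived clones.

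YAP and TAZ carry signals of cell density, shape and adhesion to the nucleus. In the Hippo cascade the kinases MST1 and MST2 (Stk4 and Stk3) activate LATS1 and LATS2, which phosphorylate YAP and TAZ and so keep them in the cytoplasm. When they are not phosphorylated they enter the nucleus, bind TEAD factors on DNA and switch on genes such as Cyr61 and Ctgf, which encode secreted matricellular proteins of the CCN family, and Ankrd1, which encodes an ankyrin repeat protein. Amotl2 encodes an angiomotin family protein that binds YAP and restrains it. Regulation of this kind acts on the YAP and TAZ proteins, which RNA-seq does not measure.

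The promoters of Ankrd1, Ccn1 (Cyr61) and Amotl2, the target genes with a RefSeq window in the table used, are shown for the recognition letters of the TEAD factors. The windows of Ctgf, Tead1 and Tead4 were not analysed here. Each run is the RefSeq window of GRCm38.p6 from 250 bases before to 50 bases from the annotated start on, written 5′ to 3′ on the gene's strand. Capitals mark the TEAD motif GGAATG, or CATTCC where it lies on the opposite strand, and in Ccn1 also the TATA box TATAAA. The windows are chr19:36119795-36120094 (minus strand) for Ankrd1, chr3:145649936-145650235 (minus strand) for Ccn1 and chr9:102717554-102717853 (plus strand) for Amotl2.
Ankrd1: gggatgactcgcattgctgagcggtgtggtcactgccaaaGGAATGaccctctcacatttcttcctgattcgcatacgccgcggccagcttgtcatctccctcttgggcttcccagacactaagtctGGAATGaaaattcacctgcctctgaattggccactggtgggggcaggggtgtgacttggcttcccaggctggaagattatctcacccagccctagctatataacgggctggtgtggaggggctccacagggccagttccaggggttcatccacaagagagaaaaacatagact
Ccn1: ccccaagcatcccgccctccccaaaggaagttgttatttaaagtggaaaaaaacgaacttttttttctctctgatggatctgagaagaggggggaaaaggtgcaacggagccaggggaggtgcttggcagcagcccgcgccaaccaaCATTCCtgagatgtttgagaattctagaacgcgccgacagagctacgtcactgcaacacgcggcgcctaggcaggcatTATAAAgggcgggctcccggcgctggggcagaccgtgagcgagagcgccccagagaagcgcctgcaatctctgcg
Amotl2: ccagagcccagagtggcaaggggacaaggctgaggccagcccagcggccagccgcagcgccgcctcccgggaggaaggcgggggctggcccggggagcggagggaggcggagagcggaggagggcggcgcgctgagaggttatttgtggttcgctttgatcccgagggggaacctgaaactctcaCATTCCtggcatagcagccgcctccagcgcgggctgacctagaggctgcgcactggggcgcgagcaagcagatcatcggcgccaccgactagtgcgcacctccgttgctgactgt

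Ankrd1 holds the TEAD letters at 2 places, whose first bases lie at -210 and -123 relative to the start. Ccn1 holds them once, at -103, with the TATA box at -25, and Amotl2 holds them once, at -65. The 7 genes with a RefSeq window had 10 windows in all, since Tead3 and Wwtr1 have more than 1. Of these, 8 held the TEAD letters, and the window of Tead2 and 1 of those of Tead3 did not, beside 14.66% of all 32851 promoter windows searched on both strands. These windows are not independent of each other. Those of Wwtr1 overlap and hold the same site, at -170 and -136, and neighbouring windows of Tead3 overlap. A share per gene was not taken. The letters of the AP-1 motif TGANTCA and of the CArG box, the site of serum response factor, were in none of the windows of these genes, and were in 7.81% and 1.63% of all windows. A letter match is a description of the window and not evidence of binding.

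The 9 libraries held 25304994 to 37264636 counts, except FAK-WT replicate 1, which held 779755, or 2.31% of the median of the other 8. A count of 3 in that library corresponds to 3.78 CPM (counts scaled to the size of the library), against 0.0798 to 0.118 CPM in the others. CPM were scaled with TMM (trimmed mean of M-values). Ptk2 itself was at 215 ± 1.92 CPM (SD, n = 3 here and throughout) in the FAK-WT line, 21.6 ± 1.93 in FAK-/- and 163 ± 11.5 in FAK-kd cells. The defining markers of keratinocytes were close to absent. Of 7 keratinocyte and epithelial genes listed, Trp63 and Epcam were not in the table analysed, and the others (Krt5, Krt14, Krt8, Krt18 and Cdh1) summed to between 0.197 and 1.74 CPM per library. The fibroblast list summed to between 1345 and 1988 CPM, nearly all of it the collagen gene Col3a1, while Col1a1 and Dcn were below 1 CPM in FAK-WT cells. The 7 fibroblast genes in the table were followed by the edgeR test defined below. In FAK-WT against FAK-/- cells, 2 were lower past the threshold (beside 3.06% of all genes) and 1 higher (beside 2.32%). Against FAK-kd cells 2 were lower (beside 2.89%) and 0 higher (beside 2.37%). Pdgfra and Pdgfrb, receptors for platelet-derived growth factor, were the lower ones, at 11.1 and 5.50 CPM in the FAK-WT line, 31.0 and 25.7 CPM in FAK-/- and 24.7 and 33.1 CPM in FAK-kd cells. The higher one was Dcn, a proteoglycan gene with at most 19 counts in a library (log2 fold change 2.24, adjusted p = 0.0426), while Col1a2 and Col3a1 were at 0.80 and 0.18 and did not pass. Of 4 endothelial genes, the cadherin gene Cdh5 was higher in the FAK-WT line, at 1.49 CPM, than in the others, at 0.142 and 0.0195 CPM (adjusted p = 0.000272 and 1.21e-05), and Pecam1, Kdr and Tek had at most 9 counts in any library. In such bulk libraries, fewer cells of a type and less RNA per cell cannot be told apart.

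A gene was called past the threshold where its Benjamini-Hochberg adjusted p was at most 0.05 over all genes and its absolute log2 fold change no smaller than 1, by edgeR's quasi-likelihood test. Of the 10 genes, 2 were past it in FAK-WT against FAK-/- cells, beside 5.38% of all genes, and 2 in FAK-WT against FAK-kd cells, beside 5.26%. In both comparisons Ankrd1 was the higher one (beside 2.32% and 2.37% of all genes) and Ctgf, which was barely detected, the lower one (beside 3.06% and 2.89%). None of the 10 was past it in FAK-kd against FAK-/- cells, where 2.01% of all genes were. Without the minimum fold, Tead4 (higher) and Cyr61 (lower) joined them in both FAK-WT comparisons, making 4 of 10 beside 18.0% and 17.7% of all genes, and Wwtr1 alone was called in FAK-kd against FAK-/- cells, beside 7.84%. The comparisons share libraries and are not independent of each other. Since the genes were chosen on the same values, these counts and shares only describe them and test nothing about the set. The median log2 fold change of the 10 genes was 0.01, -0.01 and -0.03 in the 3 comparisons in this order, and that of the 12235 genes kept by edgeR's filter on low counts was -0.02, -0.02 and 0.01.

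**Figure D1:**
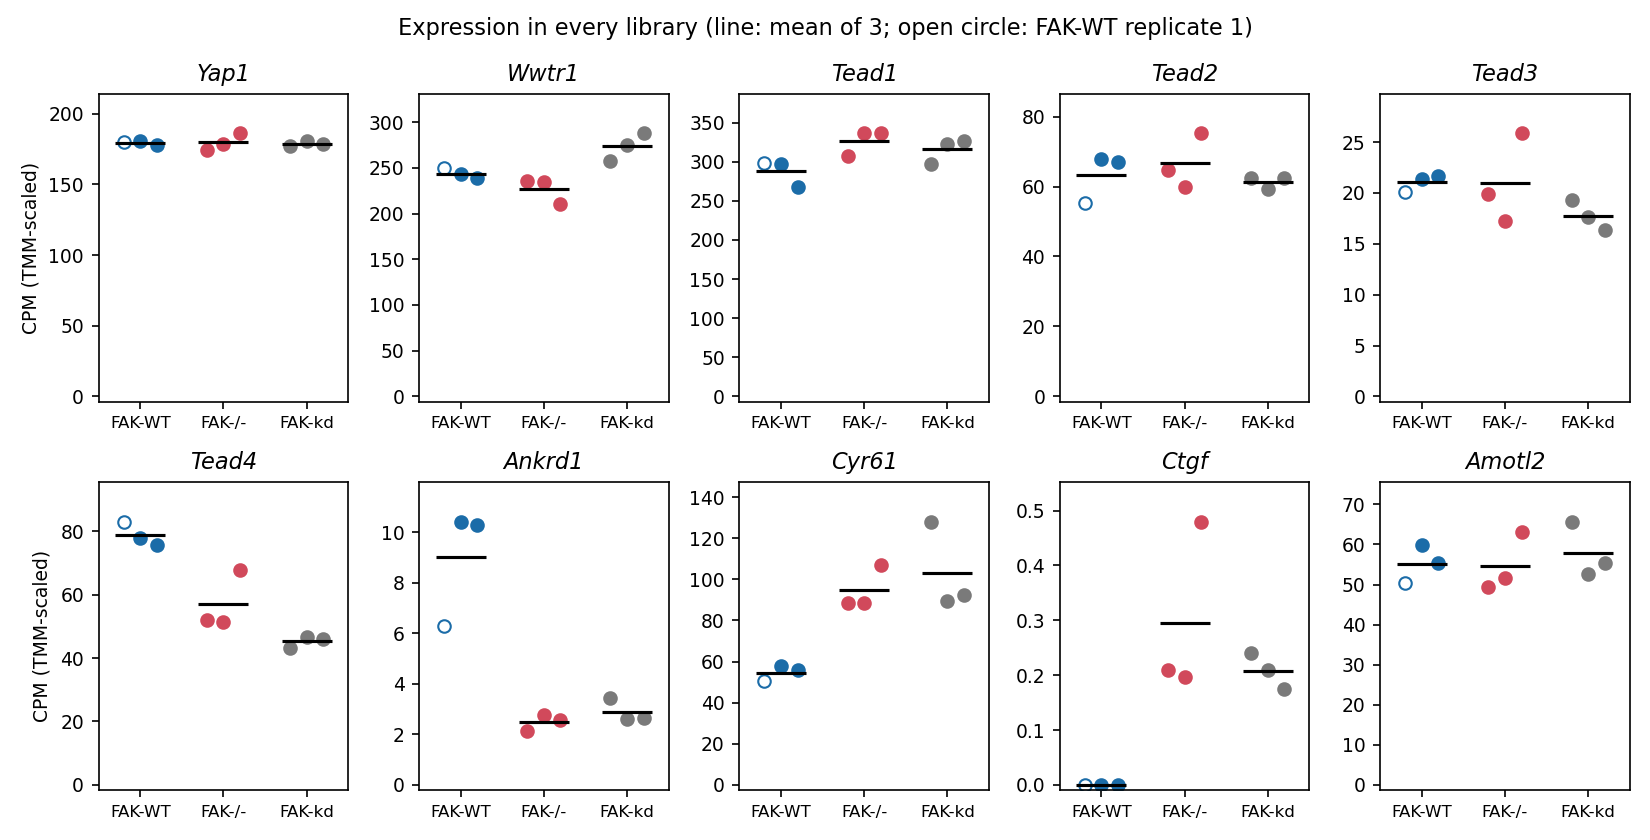
TMM-scaled CPM of the 10 genes (vertical axes, linear from 0) in each of the 9 libraries, with the mean of each cell line as a bar and the shallow FAK-WT replicate 1 as an open circle. Yap1 lies at 174 to 186 CPM in every library. Ankrd1 and Tead4 are higher in all FAK-WT libraries than in any other, and Cyr61 is lower in all of them. Ctgf has no count in the FAK-WT libraries, and its 0 in the shallow FAK-WT replicate 1 sets no bound by itself.

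Yap1 (ENSMUSG00000053110, chr9:7931999-8004596 in mm10) varied least of the 10 genes over these libraries. Its level was 180.0, 181 and 178 CPM in FAK-WT replicates 1 to 3, 174, 179 and 186 CPM in FAK-/- and 177, 180.4 and 179 CPM in FAK-kd libraries. The groups overlapped in all comparisons. On the log2 scale FAK-WT over FAK-/- cells stood at -0.0013 (SE 0.06, 95% interval -0.13 to 0.13), FAK-WT over FAK-kd cells at 0.0070 (interval -0.13 to 0.14) and FAK-kd over FAK-/- cells at -0.0083 (interval -0.14 to 0.12). A difference of Yap1 mRNA larger than these bounds was thus outside the 95% interval of each comparison.

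Wwtr1, the TAZ gene (ENSMUSG00000027803, chr3:57455649-57575910), differed more between FAK-kd and FAK-/- cells than Yap1 did. It was at 249, 243 and 238 CPM in FAK-WT, 236, 234 and 211 CPM in FAK-/- and 258, 275 and 288 CPM in FAK-kd libraries. All FAK-kd libraries lay above all FAK-WT libraries, and these lay above all FAK-/- libraries. The log2 fold change was 0.27 for FAK-kd over FAK-/- cells (SE 0.07, interval 0.12 to 0.42), -0.17 for FAK-WT over FAK-kd cells (interval -0.32 to -0.02) and 0.10 for FAK-WT over FAK-/- cells (interval -0.06 to 0.25).

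Levels of different genes were compared as CPM per kb of the longest protein-coding transcript of each gene. The ranks and shares between genes depend on this length, and which isoforms were expressed was not tested. Wwtr1 was the most abundant of the 10 on this scale in all 3 lines, at 51.8 CPM per kb in the FAK-WT line, 48.3 in FAK-/- and 58.2 in FAK-kd cells, and Yap1 was at 43.1, 43.1 and 42.8. Yap1 made up 45.4 ± 0.462% of the summed CPM per kb of the 2 coactivators in FAK-WT cells, 47.2 ± 2.41% in FAK-/- and 42.4 ± 1.28% in FAK-kd cells. The sum itself was 94.9 ± 1.39, 91.4 ± 1.68 and 101 ± 3.44 CPM per kb.

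The TEAD factors supply the DNA contact of the complex, and all 4 genes were detected in every library. Tead4 (ENSMUSG00000030353, chr6:128224288-128300823) was the one that set the lines apart. It was at 83.1, 77.8 and 75.5 CPM in FAK-WT, 51.9, 51.3 and 67.8 CPM in FAK-/- and 43.3, 46.6 and 45.9 CPM in FAK-kd libraries. The lines did not overlap in any of the 3 comparisons, in the order FAK-WT, FAK-/-, FAK-kd from high to low. Tead4 was 1.36 times as high in FAK-WT as in FAK-/- cells (log2 fold change 0.45, SE 0.11) and 1.72 times as high as in FAK-kd cells (0.78, SE 0.11). FAK-/- replicate 3 was the highest FAK-/- library for Tead4, as it was for 8 of the 10 genes. Without that library FAK-WT over FAK-/- cells had a log2 fold change of 0.58, and that of FAK-kd over FAK-/- cells moved from -0.33 to -0.19.

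Tead1 (ENSMUSG00000055320, chr7:112679318-112906807) had the highest CPM per kb of the TEAD genes, between 28.9 and 32.8 in the 3 lines. Its CPM were 298, 298 and 267 in FAK-WT, 307, 336 and 337 in FAK-/- and 298, 323 and 327 in FAK-kd libraries. Every FAK-WT library was below every FAK-/- library, with a log2 fold change of -0.19 (SE 0.07, interval -0.35 to -0.04) that did not pass the test over all genes. FAK-WT and FAK-kd libraries overlapped.

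Tead2 (ENSMUSG00000030796, chr7:45215753-45233644) was at 55.4, 67.9 and 66.9 CPM in FAK-WT, 64.8, 59.8 and 75.3 in FAK-/- and 62.3, 59.2 and 62.4 in FAK-kd libraries. No pair of lines was separated for Tead2, and its log2 fold changes lay between -0.12 and 0.10. Tead3 (ENSMUSG00000002249, chr17:28331671-28350817), the lowest of the TEAD genes per kb, was at 20.1, 21.4 and 21.6 CPM in FAK-WT, 19.9, 17.3 and 25.9 in FAK-/- and 19.3, 17.6 and 16.4 in FAK-kd libraries. Its FAK-WT libraries lay above its FAK-kd libraries by a log2 fold change of 0.27 (SE 0.14, interval -0.02 to 0.56), which was not called, and both overlapped the FAK-/- libraries.

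As a share of the summed TEAD CPM per kb, Tead4 made up 31.7 ± 1.60% in the FAK-WT line, 23.5 ± 1.52% in FAK-/- and 20.8 ± 0.468% in FAK-kd cells. The lowest FAK-WT library was at 30.5% and the highest library of the other lines at 25.2%. Tead1 took the larger part of the difference, with 35.7 ± 1.60%, 42.0 ± 3.39% and 44.7 ± 1.36%. Tead2 made up 23.1%, 25.0% and 25.5% and Tead3 9.40%, 9.59% and 9.04%. The summed level was 80.8 ± 2.01 CPM per kb in the FAK-WT line, 78.5 ± 7.63 in FAK-/- and 70.8 ± 1.43 in FAK-kd cells, with FAK-WT and FAK-/- libraries overlapping.

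**Figure D2:**
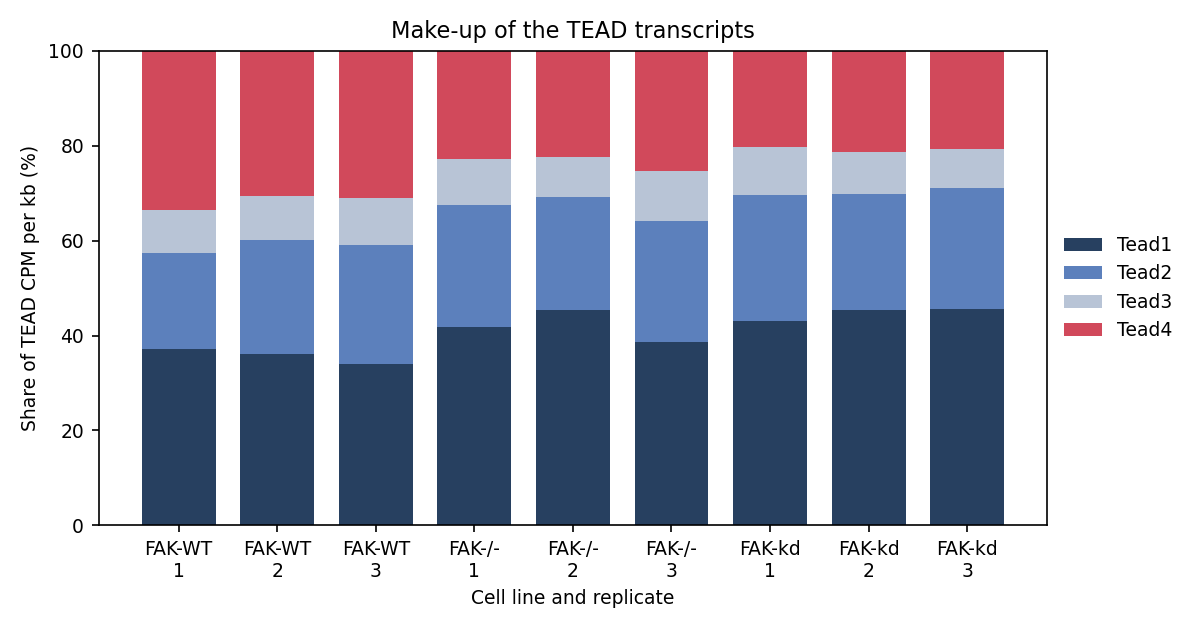
Stacked bars of the share of each TEAD gene in the summed TEAD CPM per kb (vertical axis, %) in each of the 9 libraries (horizontal axis). The Tead4 segment at the top takes 30.5% to 33.5% in FAK-WT, 22.4% to 25.2% in FAK-/- and 20.3% to 21.2% in FAK-kd libraries.

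The 4 target genes did not move together. Ankrd1 (ENSMUSG00000024803, chr19:36111961-36120099) was at 6.29, 10.4 and 10.3 CPM in FAK-WT, 2.13, 2.76 and 2.56 CPM in FAK-/- and 3.45, 2.61 and 2.64 CPM in FAK-kd libraries. All FAK-WT libraries were above all others, and FAK-/- and FAK-kd libraries overlapped. The fitted level was 4.0 times that of FAK-/- cells (log2 fold change 2.00, SE 0.20, interval 1.57 to 2.43) and 3.42 times that of FAK-kd cells (1.77, SE 0.20, interval 1.36 to 2.19). The lowest FAK-WT value came from the shallow library, where it rested on 5 counts (exact 95% Poisson interval, counting error only, 2.04 to 14.7 CPM). Without that library the log2 fold changes were 2.06 and 1.84. Ankrd1 was scarce in all lines, at 4.46, 1.23 and 1.43 CPM per kb in FAK-WT, FAK-/- and FAK-kd cells.

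Cyr61 (ENSMUSG00000028195, chr3:145646976-145649981) had the opposite direction. Its level was 50.4, 57.6 and 55.8 CPM in FAK-WT, 88.7, 88.3 and 107 CPM in FAK-/- and 128, 89.3 and 92.1 CPM in FAK-kd libraries. Every FAK-WT library was below every other library, and FAK-/- and FAK-kd libraries overlapped. FAK-WT cells had 0.590 times the level of FAK-/- cells (log2 fold change -0.76, SE 0.13, interval -1.04 to -0.48) and 0.542 times that of FAK-kd cells (-0.88, SE 0.13, interval -1.16 to -0.61). Without FAK-kd replicate 1, its highest library, the latter log2 fold change was -0.68. Per kb, Cyr61 stood between Tead1 and Tead4 in FAK-WT cells at 27.0, and next after Wwtr1 in FAK-/- cells at 46.9 and in FAK-kd cells at 51.1.

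Ctgf (ENSMUSG00000019997, chr10:24595442-24598683), the other CCN gene, was at the limit of detection in all lines. It had 0 counts in every FAK-WT library, 7, 5 and 15 counts in FAK-/- libraries and 8, 7 and 6 counts in FAK-kd libraries. These correspond to 0.197 to 0.480 CPM in FAK-/- and 0.176 to 0.240 CPM in FAK-kd cells. Taking 3 counts over the FAK-WT group as the floor, the level of Ctgf summed over the FAK-/- libraries was 7.31 times this floor. The level summed over the FAK-kd libraries was 5.07 times the floor. These ratios leave out the counting error of the FAK-/- and FAK-kd counts and the spread between libraries, so they are not strict bounds. The 0 in FAK-WT replicate 1 allows up to 3.78 CPM and so sets no bound by itself. At its peak Ctgf reached 0.119 CPM per kb, in FAK-/- cells, where Cyr61 was at 46.9.

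Amotl2 (ENSMUSG00000032531, chr9:102716672-102733418), the inhibitor among the targets, was at 50.4, 59.9 and 55.4 CPM in FAK-WT, 49.3, 51.5 and 63.0 in FAK-/- and 65.7, 52.5 and 55.2 in FAK-kd libraries. All lines overlapped. The log2 fold changes were 0.05 (interval -0.19 to 0.30), -0.03 (interval -0.27 to 0.21) and 0.08 (interval -0.15 to 0.31) for FAK-WT over FAK-/-, FAK-WT over FAK-kd and FAK-kd over FAK-/- cells. For 6 of the 10 genes the FAK-WT and FAK-/- libraries were fully separated (Wwtr1, Tead4 and Ankrd1 higher, Tead1, Cyr61 and Ctgf lower), beside 42.5% of genes kept by the filter. Likewise 6 were separated between FAK-WT and FAK-kd (Tead3, Tead4 and Ankrd1 higher, Wwtr1, Cyr61 and Ctgf lower), beside 47.7%, and 2 between FAK-kd and FAK-/- (Wwtr1 higher, Tead4 lower), beside 35.3%. Ctgf is counted by its measured values, although the filter removes it and its 0 in the shallow FAK-WT replicate 1 sets no bound.

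**Figure D3:**
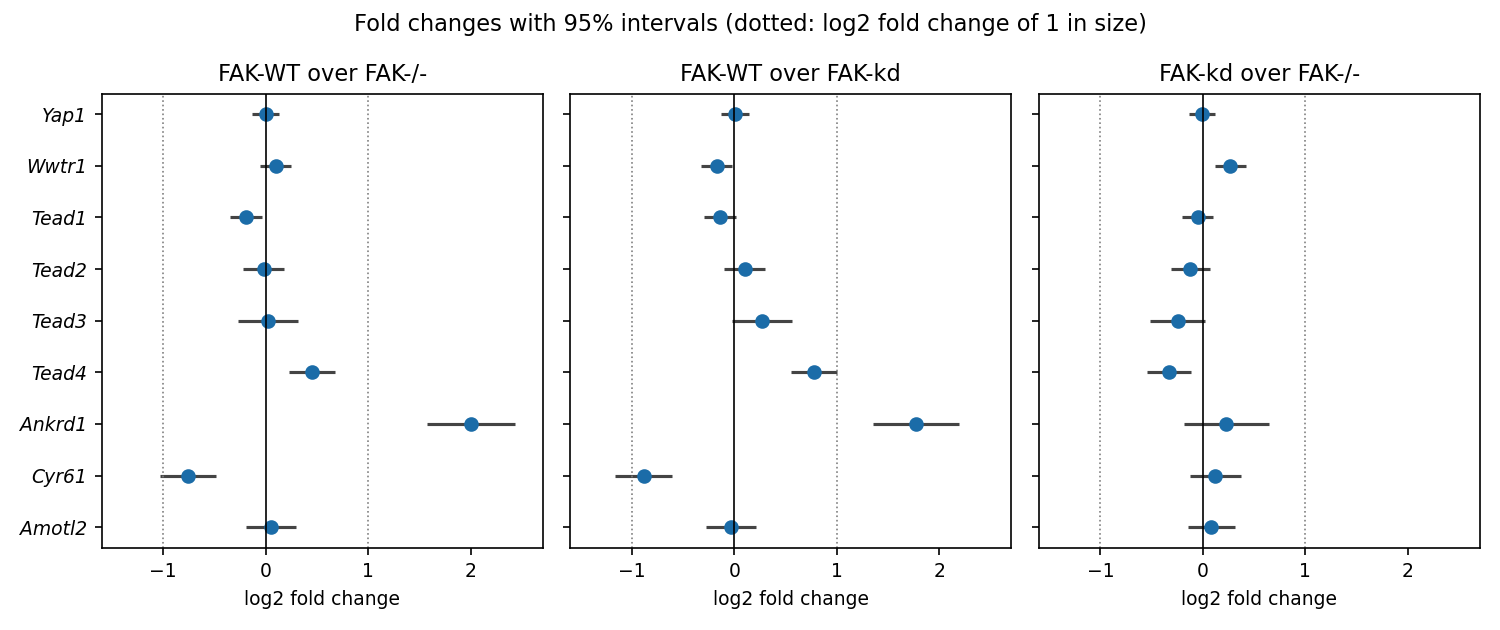
Log2 fold change (horizontal axes) with 95% interval for 9 of the 10 genes in the 3 comparisons, with dotted lines at the minimum fold of the threshold. Ctgf is left out because it had no count in FAK-WT libraries. Ankrd1 lies at 2.00 and 1.77 in the FAK-WT comparisons, Cyr61 at -0.76 and -0.88 and Yap1 next to 0 in all 3.

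Over the 9 libraries, the genes whose log2 CPM most resembled that of a member were named as a description. They had the highest r among 7167 or 7168 genes with a mean of at least 20 CPM, so high values follow in part from the search. For Ankrd1 these were Heatr3 (Pearson r = 0.998), Abcf2 (0.985) and Eif3b (0.981). For Cyr61 they were Rps15 (0.991), Manbal (0.986) and Galnt10 (0.978), and for Ctgf they were Aurkb (0.993), Slc16a11 (0.993) and H2afy (0.992). Ctgf had between 0 and 15 counts in a library, so each r with it rests on values at the limit of detection. Wwtr1 was most like Scamp1 (0.970), Scaf11 (0.970) and Nedd4 (0.969). The values were lower for Yap1, with Rnf123 (0.929), Prrc2a (0.914) and Asb6 (0.908), and for Amotl2, with Cherp (0.908), Cdc20 (0.890) and Actr1a (0.867). Among the members, r was 0.931 between Cyr61 and Ctgf, -0.799 between Ankrd1 and Cyr61, 0.762 between Tead4 and Ankrd1 and -0.815 between Tead4 and Cyr61. The points are 3 libraries of each of 3 lines, so they share a line and, within a library, a depth.

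The Hippo pathway around these genes was followed in a list of 25 regulators, of which 23 were in the table analysed. None of the 11 genes of the kinase cassette was past the threshold in any of the 3 comparisons, with edgeR or with DESeq2. By edgeR 5.38%, 5.26% and 2.01% of all genes were past it, so 0 of 11 genes is near these shares. At an unadjusted edgeR p under 0.05, 2 cassette genes were higher and 4 lower in FAK-WT against FAK-/-, 3 higher and 4 lower in FAK-WT against FAK-kd, and 1 higher and 1 lower in FAK-kd against FAK-/- cells. The share of all genes at that p was not taken. By adjusted p alone 1 cassette gene was higher and 1 lower, 0 higher and 3 lower, and 0 higher and 1 lower, beside 18.0%, 17.7% and 7.84% of all genes. By the edgeR test over all genes, without the minimum fold, the adaptor Sav1 (WW45) was lower in the FAK-WT line in both comparisons, by a log2 fold change of -0.38 against FAK-/- (adjusted p = 0.00126) and -0.48 against FAK-kd cells (adjusted p = 0.000173). The kinase gene Stk3 was at 79.6, 96.1 and 118 CPM in FAK-WT, FAK-/- and FAK-kd cells and was lower in FAK-WT than in FAK-kd cells (-0.55, adjusted p = 0.00103). Lats2, itself a YAP target, was at 47.2 ± 8.17, 33.5 ± 0.968 and 37.0 ± 0.872 CPM and was higher in the FAK-WT than in the FAK-/- line (0.41, adjusted p = 0.00996). Its FAK-WT mean was raised by the shallow replicate 1, at 56.6 CPM from 45 counts, while replicates 2 and 3 were at 42.0 and 43.0 CPM.

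These other core regulators did not pass the test in either FAK-WT comparison. Stk4 was at 56.4, 54.5 and 51.2 CPM in FAK-WT, FAK-/- and FAK-kd cells (edgeR adjusted p = 0.401 against FAK-/- and 0.148 against FAK-kd cells). Lats1 was at 102, 110 and 118 CPM (adjusted p = 0.458 and 0.138, edgeR). Nf2, which encodes the scaffold Merlin, was at 113, 102 and 101 CPM (adjusted p = 0.0883 and 0.0623, edgeR), and Amot, the angiomotin gene, was at 67.7, 55.3 and 65.2 CPM (adjusted p = 0.0715 and 0.799, edgeR).

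Of the 23 regulators, 2 were past the threshold in each comparison, beside 5.38%, 5.26% and 2.01% of all genes. They were 3 genes in all, each outside the kinase cassette. Vgll3 encodes a vestigial-like cofactor that binds TEAD factors. It was at 5.56 ± 0.726 CPM in the FAK-WT line, 25.3 ± 1.83 in FAK-/- and 33.2 ± 1.13 in FAK-kd cells. It fell in FAK-WT against FAK-/- cells by 2.27 on the log2 scale (SE 0.12, edgeR adjusted p = 2.33e-09) and fell by 2.67 against FAK-kd cells (SE 0.12, adjusted p = 3.98e-10). The highest FAK-WT library was at 6.29 CPM and the lowest of the others at 23.2 CPM. That FAK-WT library was the shallow replicate 1, where Vgll3 rested on 5 counts.

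Wtip and Frmd6 each set 1 line apart. Wtip, an Ajuba family LIM gene, was at 4.45 ± 0.633 CPM in FAK-WT and 5.82 ± 0.615 in FAK-kd but 18.1 ± 4.88 in FAK-/- cells. Relative to the FAK-/- line, its log2 fold change was -1.93 in FAK-WT (adjusted p = 3.08e-06) and -1.64 in FAK-kd cells (adjusted p = 1.45e-05, edgeR). Frmd6, a FERM domain scaffold upstream of Hippo, was at 162 ± 6.93 CPM in FAK-kd cells against 75.4 ± 6.50 in FAK-WT and 71.1 ± 1.55 in FAK-/- cells. It was higher in FAK-kd than in FAK-/- cells by a log2 fold change of 1.19 (adjusted p = 4.06e-08) and lower in FAK-WT than in FAK-kd cells by one of -1.06 (adjusted p = 6.24e-08, edgeR).

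A second list held 18 further genes of a published YAP/TAZ target signature, of which 17 were in the table analysed. Lats2 and Ptpn14 are also among the regulators, so both lists count them. In FAK-WT against FAK-/- cells 4 of the 17 were lower past the threshold and 0 higher, beside 3.06% lower and 2.32% higher among all genes, with a median log2 fold change of -0.19. In FAK-WT against FAK-kd cells the same 4 genes were lower and 0 higher, beside 2.89% and 2.37%, with a median of -0.32, and in FAK-kd against FAK-/- cells 1 was lower and 0 higher, beside 2.01% in either direction. DESeq2 likewise called 0 higher in all 3 comparisons, with 4, 4 and 1 lower. At an unadjusted edgeR p under 0.05, 2 of the list were higher and 8 lower, 3 higher and 9 lower, and 3 higher and 5 lower. The share of all genes at that p was not taken. By adjusted p alone 2 were higher and 7 lower, 1 higher and 6 lower, and 1 higher and 4 lower in the 3 comparisons, beside 18.0%, 17.7% and 7.84% of all genes in either direction. The 2 higher in FAK-WT against FAK-/- cells were Lats2 and Ptpn14.

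The 4 genes were Igfbp3, Nt5e, Rbms3 and Foxf2. Igfbp3, which encodes a secreted binding protein of insulin-like growth factors, was at 1.30 ± 0.359 CPM in the FAK-WT line, 32.5 ± 3.93 in FAK-/- and 8.91 ± 0.251 in FAK-kd cells. In the shallow FAK-WT replicate 1 it rested on 1 count. It fell by 4.63 on the log2 scale in FAK-WT against FAK-/- cells (SE 0.18, edgeR adjusted p = 2.51e-10) and fell by 2.77 relative to FAK-kd cells (SE 0.18, adjusted p = 5.05e-08). It was also the one gene of the list past the threshold between FAK-kd and FAK-/- cells, where its log2 difference was -1.87 (SE 0.13, adjusted p = 3.27e-07). Igfbp3 and Ankrd1 thus differed between FAK-WT and FAK-/- cells in opposite directions, although both are listed as YAP/TAZ targets.

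Nt5e, the gene of the ectonucleotidase CD73, was at 10.6 ± 0.639, 33.3 ± 4.27 and 22.1 ± 2.13 CPM in FAK-WT, FAK-/- and FAK-kd cells, with edgeR adjusted p = 1.47e-07 and 1.27e-05 for FAK-WT against the others. Rbms3, which encodes an RNA-binding protein, was at 2.97 ± 0.779, 8.99 ± 1.39 and 11.4 ± 1.58 CPM (adjusted p = 8.1e-06 and 1.48e-06). Foxf2, a forkhead transcription factor gene, was at 22.0 ± 5.95, 58.5 ± 10.2 and 49.6 ± 1.18 CPM. Its log2 fold change was -1.26 against FAK-/- cells (adjusted p = 7.28e-06) and -1.02 against FAK-kd cells (adjusted p = 5.71e-05, edgeR), and the latter was no longer 1 in size without FAK-WT replicate 1, FAK-/- replicate 3 or FAK-kd replicate 3. Axl, a receptor tyrosine kinase gene with 1791, 1922 and 1560 CPM, was the most highly counted gene of the list. It was higher in the FAK-WT than in the FAK-kd line by 0.20 on the log2 scale (edgeR adjusted p = 0.0199). Of the fibroblast list, Pdgfra and Pdgfrb were lower in the FAK-WT line like these 4 genes, whereas Dcn was higher and the others did not pass against FAK-/- cells, and the part of such genes in these results was not tested.

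The paralogs of the target genes were followed in a list of 6. Nov (Ccn3), another matricellular CCN gene, was at 25.7 ± 2.89 CPM in the FAK-WT line, 57.4 ± 4.15 in FAK-/- and 41.3 ± 3.04 in FAK-kd cells. It fell in FAK-WT against FAK-/- cells by 1.23 on the log2 scale (SE 0.10, edgeR adjusted p = 6.65e-07), and its log2 fold change against FAK-kd cells was -0.75 (SE 0.10, adjusted p = 8.88e-05). The other CCN genes, Wisp1, Wisp2 and Wisp3, had between 0 and 11 counts in a library and overlapped between FAK-WT and the other lines. None of the other 5 paralogs was past the threshold in the 3 comparisons, beside 5.38%, 5.26% and 2.01% of all genes, so 0 of 5 is near these shares. Ankrd2 had at most 2 counts in a library, and edgeR's filter on low counts kept 2 of the 6 paralogs.

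**Figure D4:**
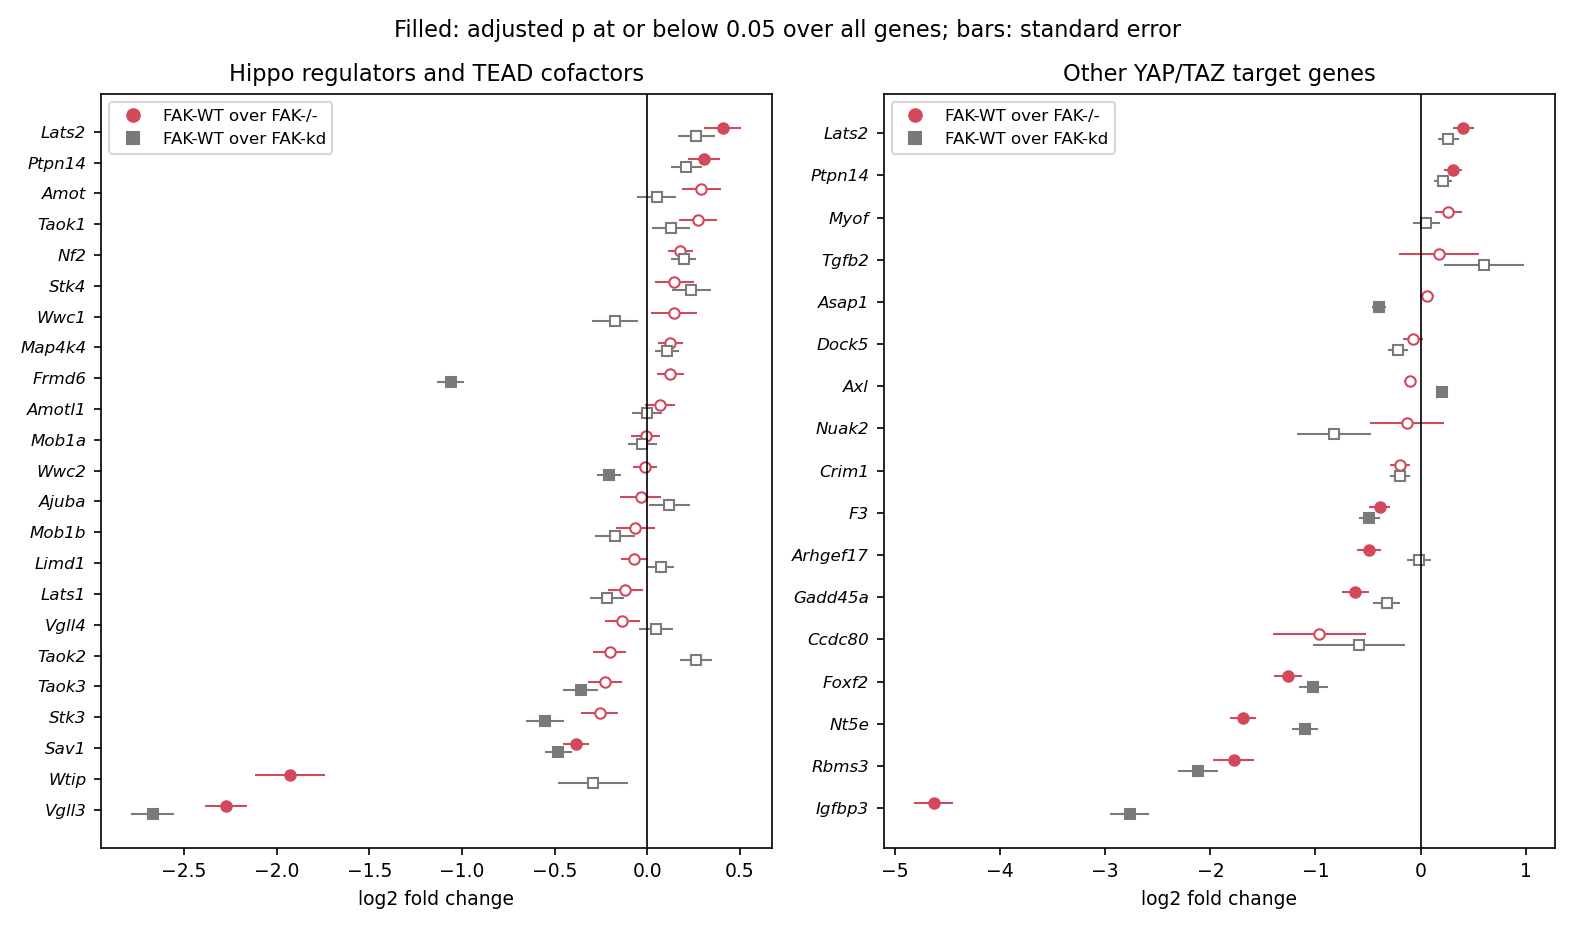
Log2 fold change (horizontal axes) of FAK-WT over FAK-/- cells (circles) and over FAK-kd cells (squares) for the 23 regulators on the left and the 17 further target genes on the right, with bars of 1 standard error and filled symbols at an adjusted p of at most 0.05. Vgll3 lies at -2.27 and -2.67, Frmd6 is apart only against FAK-kd cells (-1.06), and Igfbp3 lies at -4.63 and -2.77.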

How the data were processed

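RNA-seq was analysed for 9 libraries of 3 mouse SCC lines (FAK-WT, FAK-kd and FAK-/-), with 3 replicates each, grouped by the sample titles. The authors deposited estimated counts per gene, made by pseudoalignment with kallisto (version 0.43.1 per the submitters' processing notes, which name GRCm38 and mm10) and summarised to genes, as whole numbers without scaling. The transcriptome release was not given in the sources used here. Symbols and positions came from GENCODE M21 for 18856 of 19044 identifiers. The deepest library held 37264636 counts and the shallowest 779755. The table has no length offsets, so isoform changes are not corrected for.

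All genes were fitted together in edgeR 4.0.16 (R 4.3.3, TMM, glmQLFit and glmQLFTest), with line as the only factor and no filter. Past the threshold means a Benjamini-Hochberg adjusted p of at most 0.05 and an absolute log2 fold change no smaller than 1. CPM per kb used the longest protein-coding transcript. The fit was tested on simulated counts.

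The 10 genes and the lists were chosen with earlier results of these data known. The named genes are these 10, Ptk2, the regulators Stk3, Stk4, Lats1, Lats2, Nf2 and Amot, every listed regulator, target or paralog past the threshold in at least 1 comparison with a mean count of at least 100, and the 3 genes most like each of 6 members. Sav1, Axl, Taok3, the Wisp genes and the marker genes were named after their values were seen. Alternatives were DESeq2 1.42.0, other scalings, filterByExpr, fits of 2 groups, a replicate block, other thresholds and leaving out each library. Protein sequences were not analysed here.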

Additional observations from a re-analysis of the deposited data

Results flagged for a closer look

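In 3 of the 45 listed genes with a mean count of at least 100 (6.67%), FAK-WT and FAK-kd libraries lay on opposite sides of every FAK-/- library. The same held for 5.15% of all 9926 genes with such a count, a share close to that of the listed genes. Tead4 was higher in FAK-WT and lower in FAK-kd cells, and the log2 difference between them was 0.78 (SE 0.11, interval 0.56 to 1.00). Its step from FAK-/- to FAK-kd cells was -0.33, which was not called over all genes, and -0.19 without FAK-/- replicate 3. No p is given, since Tead4 was chosen with its values known. Vgll3 was lower in FAK-WT cells, at 4.84 to 6.29 CPM, and higher in FAK-kd cells, at 32.3 to 34.5 CPM, than in FAK-/- cells, at 23.2 to 26.4 CPM. The FAK-WT over FAK-kd log2 difference was -2.67 (edgeR adjusted p = 3.98e-10). Its step from FAK-/- to FAK-kd cells was 0.39 (adjusted p = 0.0146, edgeR). Taok3, a kinase gene upstream of MST1 and MST2, was at 22.7 to 25.0 CPM in FAK-WT, 27.2 to 28.6 in FAK-/- and 30.0 to 31.6 in FAK-kd libraries. The log2 fold change between FAK-WT and FAK-kd cells was -0.36 (edgeR adjusted p = 0.0119), and neither step against FAK-/- cells passed the test (adjusted p = 0.107 and 0.425). The FAK-/- libraries are shared by both steps, and the opposite directions themselves were not tested beyond the direct contrast of both re-expressing lines.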

How the results depend on the processing

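The counts for the 10 genes only describe genes chosen on these values. Ctgf was not past the threshold under 2 alternatives: DESeq2 left 1 of the 10 genes past the threshold in FAK-WT against FAK-kd cells, and filterByExpr, which removes Ctgf, left 1 in FAK-WT against FAK-/- and 1 in FAK-WT against FAK-kd cells. With no minimum fold change the counts for FAK-WT against FAK-/-, FAK-WT against FAK-kd and FAK-kd against FAK-/- cells were 4, 4 and 1 of the 10 genes, 5, 6 and 4 of the 23 regulators and 9, 7 and 5 of the 17 further targets. Of all genes, 18.0%, 17.7% and 7.84% were called in this way. With glmTreat against a log2 fold change of 1, there was 1 regulator and 2 further targets in FAK-WT against FAK-kd cells, 1 regulator in FAK-kd against FAK-/- cells, and 3 further targets in FAK-WT against FAK-/- cells, without Foxf2. The share of all genes called by glmTreat was not taken. Foxf2 was also not past the threshold against FAK-kd cells with library sizes in place of TMM, with filterByExpr or in the fit of 2 groups (3 further targets each). Leaving out 1 library at a time gave 2 to 2, 2 to 2 and 0 to 0 of the 10 genes, 2 regulators throughout, and 4 to 4, 3 to 4 and 1 to 1 further targets. The replicate numbers did not pair the libraries (mean correlation of deviations -0.0077 for the same number over 9 pairs and 0.0035 for different numbers over 18), and the fit with the replicate number as a block gave the same counts, 2, 2 and 0 of the 10 genes, 2 regulators in each comparison, and 4, 4 and 1 further targets. The log2 fold changes of Ankrd1 and Ctgf against both other lines kept their sign in every alternative fit that gave them. No other scaling moved the median over genes by more than 0.03. Depth limits Ctgf and, in FAK-WT replicate 1, Ankrd1 and other genes with few counts there. That library held 5 counts of Vgll3, 3 of Wtip, 1 of Igfbp3, 3 of Rbms3, 9 of Nt5e and 12 of Foxf2.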
